A study of Mus musculus with 4 samples.

Results

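The genes described here encode the NF-kB transcription factor and proteins that regulate it, most of which hold it in check. They are the 5 subunit genes Nfkb1, Nfkb2, Rel, Rela and Relb, the 4 IkB genes Nfkbia, Nfkbib, Nfkbie and Nfkbiz, and the ubiquitin-editing enzyme gene Tnfaip3. The IkB genes and Tnfaip3 are grouped as inhibitors here, although the protein of Nfkbiz helps NF-kB switch on secondary response genes. All members were taken by name from a fixed list. All 10 were found among the 53647 genes of the deposited count tables and among the 12972 genes with enough reads to be tested. The RNA came from 4T1 cells, an established BALB/c mouse line grown from a mammary tumour, with the genotype WT in the labels. Mock cells were given EGFP mRNA and uniSTING cells the mRNA of uniSTING, a mimic of the innate immune adaptor STING, so delivery of an mRNA was common to both groups. Each group held 2 libraries, numbered as preparations in the labels and called replicates 1 and 2 here. Both a TransIT-mRNA reagent and SS-OP lipid nanoparticles appear in the protocols as carriers, neither tied to a library, and no dose or time is stated.

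NF-kB acts as a dimer of subunits that share a Rel homology region. In resting cells IkB proteins hold the dimers in the cytoplasm, and signals through the IkB kinase complex lead to IkB breakdown and entry of the dimers into the nucleus. The gene for IkBα, Nfkbia, is itself a classical NF-kB target, as are Nfkbie, Tnfaip3, Nfkbiz and several subunit genes, so their transcripts are commonly read as a sign that the pathway has been active. STING is known to engage interferon regulatory factors and, to an extent that depends on its signalling tail, NF-kB. The series set out to examine type I interferon signalling and other pathways downstream of uniSTING, and the comparison made here is uniSTING against Mock.

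Total counts ran from 17502694 to 25071840 per library. The 2 libraries of a group differed by 1.47 (Mock) and 1.51 (uniSTING) times the variance that counting alone gives, against 14.4 and 17.0 times between libraries of different groups with the same number. Whether the preparations were separate cultures is not stated, so every p-value here reflects the spread among these 4 libraries and that spread may be technical. The 5 carcinoma markers Epcam, Krt8, Krt18, Krt14 and Cdh1 were abundant in every library, with a sum of 3594 to 3612 CPM (counts scaled to a common library total). Of 5 leukocyte markers 4 had a count, most of it Cd68, with Itgam at 0 throughout and Ptprc at 0 in the replicate 2 library of each group, and their sum was 8.97 and 6.44 CPM in Mock and 11.8 and 10.4 CPM in uniSTING. Endothelial and stromal markers (all 5 with a count) summed to 1.48 to 4.68 CPM and were higher in the replicate 1 library of each group. The part of these other markers in the results was not tested.

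The promoters of several of these genes carry kB motifs, the sequence that NF-kB dimers bind, and those of 4 genes that went different ways are shown here so that the motif can be set beside the expression values. Sequences are from RefSeq (GRCm38.p6), whose windows of 250 bases before to 50 bases after a gene's start covered 7 of the 10 members (not Nfkb1, Relb or Nfkbiz). Each line gives the 130 bases that end just before the start, 5′ to 3′ on the gene's strand, with kB motifs of either strand in capitals.
Nfkbia, chr12:55492648-55492777, minus strand: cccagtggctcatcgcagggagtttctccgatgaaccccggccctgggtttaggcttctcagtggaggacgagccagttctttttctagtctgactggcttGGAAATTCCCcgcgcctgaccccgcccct
Tnfaip3, chr10:19015411-19015540, minus strand: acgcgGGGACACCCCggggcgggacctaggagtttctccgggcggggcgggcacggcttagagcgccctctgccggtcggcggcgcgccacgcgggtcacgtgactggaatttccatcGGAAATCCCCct
Nfkb2, chr19:46304607-46304736, plus strand: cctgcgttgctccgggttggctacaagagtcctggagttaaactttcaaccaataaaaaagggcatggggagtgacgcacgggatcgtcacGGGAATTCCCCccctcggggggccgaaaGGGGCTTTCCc
Rel, chr11:23770970-23771099, minus strand: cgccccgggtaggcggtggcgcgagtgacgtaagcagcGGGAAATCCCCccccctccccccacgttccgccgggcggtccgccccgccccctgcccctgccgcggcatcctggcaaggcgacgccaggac
The capitals mark matches to the general kB consensus, a motif of 10 bases with several ambiguous positions, and to a second form, GGGNNTTTCC, which can overlap it. The search covered both strands of the whole window.

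Of the 7 members in the table, 5 had a match to the general consensus (Nfkb2, Rel, Nfkbia, Nfkbie and Tnfaip3) and 4 of these also to GGGNNTTTCC (all but Nfkbie). Among 9254 tested genes in the table, 6.32% had the general consensus and 2.01% had GGGNNTTTCC. In Nfkbia the match GGGAATTTCC lay on the opposite strand at positions -29 to -20, counted back from the start. In Tnfaip3, with a match in 1 of 2 windows, GGGGATTTCC lay at -12 to -3, also on the opposite strand, and a further general match at -125 to -116. The first of 3 annotated Nfkb2 starts had GGGGCTTTCC at -11 to -2 beside overlapping matches from -39 to -29, and Rel had overlapping matches from -92 to -82. The core of the interferon-stimulated response element, GAAANNGAAA, was in none of the 7 members and in 3.70% of the tested genes. No match was found for Rela and Nfkbib, which says only that these letters are not in the window.

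The clearest change among the members was a rise of Nfkbia, 1.40-fold, in uniSTING. A smaller rise of Nfkbib, to 1.16-fold, also passed the test. Of the 5 subunit genes, 4 were lower in uniSTING and none was higher, by 1.06-fold (Rela) to 1.29-fold (Rel). Nfkbiz and Tnfaip3 were lower, at -0.23 and -0.09 on the log2 scale, and Relb and Nfkbie did not pass. In all, 2 of the 10 members rose and 6 fell at a threshold of 0.05 by edgeR's quasi-likelihood test, with Benjamini-Hochberg adjustment over every gene tested, and DESeq2 called 1 higher and 3 lower. In such bulk RNA, fewer cells that express a gene and less RNA per cell cannot be told apart. Over all tested genes 50.2% passed, 24.9% higher and 25.4% lower, so a call as such does not set the members apart. The median log2 fold change was -0.09 over the members and 0.01 over all tested genes. Changes of at least 1.25-fold that passed were found for 2 members, Nfkbia and Rel, against 26% of all tested genes, and no member reached 1.5-fold. The values of the 2 groups did not overlap for 9 members (all but Relb), beside 75.1% of all tested genes.

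**Figure D1:**
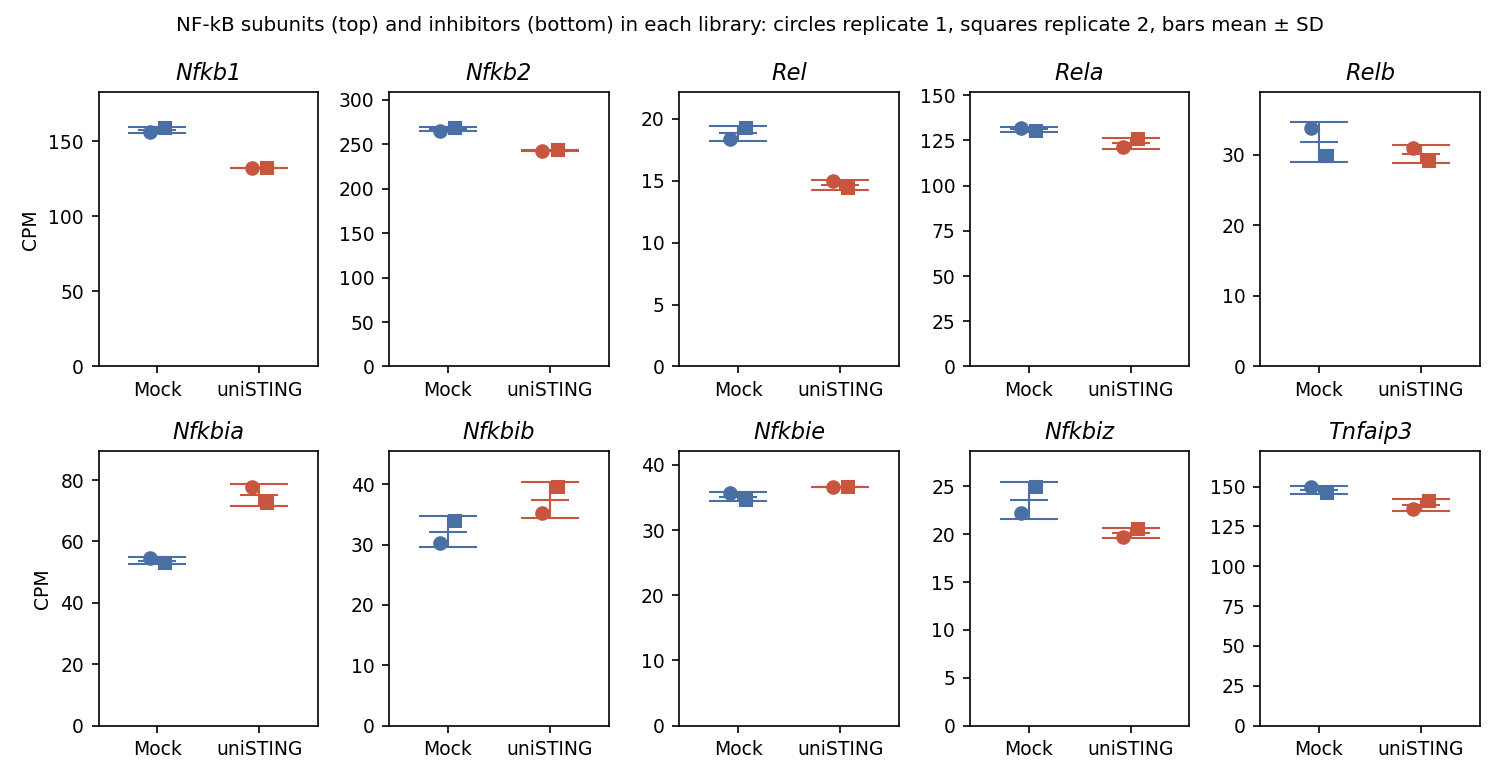
CPM (y axes from 0) of each member in the 4 libraries, with the mean and SD of each group. Nfkbia lies at 52.9 and 54.6 in Mock and at 72.6 and 77.7 in uniSTING, whereas most other members differ little between the groups.

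IkB proteins retain NF-kB in the cytoplasm, and IkBα, encoded by Nfkbia, is the one resynthesised fastest after a signal. The gene (ENSMUSG00000021025, chromosome 12, 55536195 to 55539432, GRCm39, 6 exon blocks) stood at 54.6 and 52.9 CPM, from here on scaled by TMM, in Mock replicates 1 and 2 and at 77.7 and 72.6 CPM in uniSTING. Both uniSTING libraries were well above both Mock libraries, with means of 53.8 ± 1.20 and 75.1 ± 3.65 CPM (SD, n = 2 libraries per group). The log2 fold change was 0.48 (SE 0.05, adjusted p = 1.18e-05). This was larger in size than the change of 79.9% of all tested genes. The raw counts behind it were 963 to 1170 per Mock library and 1456 to 1806 per uniSTING library. Of all members, only Nfkbia kept its call in each of the 13 other fits of the member values, where its log2 fold change ran from 0.29 to 0.53.

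Nfkbib, which encodes IkBβ (chromosome 7, 28457676 to 28466937), had 30.3 and 33.9 CPM in Mock and 35.2 and 39.5 CPM in uniSTING. The groups did not overlap, but the higher Mock library and the lower uniSTING library were close. Its log2 fold change of 0.22 (SE 0.08, adjusted p = 0.0427) lost its call with DESeq2 (adjusted p = 0.115). It was also lost when Mock replicate 1 was left out (adjusted p = 0.299) and when uniSTING replicate 2 was (adjusted p = 0.256), and with the trend of exon or coding transcript length removed (adjusted p = 0.415 and 0.190). Exons of other genes on the opposite strand, Ccer2 and Sirt2, cover 16.4% of its exon length, and the counting did not use strand. Ccer2 had no count in any library, and Sirt2 had 516 to 753 counts.

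Nfkbie, which encodes IkBε (chromosome 17, 45866629 to 45874095), had 35.6 and 34.6 CPM in Mock and 36.6 and 36.6 CPM in uniSTING. Its log2 fold change was 0.06 with a 95% interval from -0.08 to 0.20, and it did not pass (adjusted p = 0.458).

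Nfkbiz encodes IkBζ, an atypical nuclear IkB that helps NF-kB switch on secondary response genes. The gene (chromosome 16, 55631738 to 55659262) had 22.2 and 24.9 CPM in Mock and 19.7 and 20.5 CPM in uniSTING. Both uniSTING values were below both Mock values, at -0.23 on the log2 scale (SE 0.08, adjusted p = 0.0320). The call was lost with DESeq2 (adjusted p = 0.177). The same held when Mock replicate 2 was left out (adjusted p = 0.247) and when uniSTING replicate 1 was (adjusted p = 0.143), and in the 3 fits with trends removed (adjusted p from 0.0644 to 0.129).

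Tnfaip3 encodes A20, which edits ubiquitin chains on signalling proteins and shuts the pathway off. The gene (chromosome 10, 18876658 to 18891405) had 150 and 146 CPM in Mock and 136 and 141 CPM in uniSTING. The log2 fold change of -0.09 (SE 0.03, adjusted p = 0.0263) lost its call with DESeq2 (adjusted p = 0.152). Leaving out Mock replicate 1 or uniSTING replicate 1 ended it too (adjusted p = 0.104 and 0.196). With the exon length trend, or length and GC trends, removed its log2 fold change turned to 0.0175 and 1.86e-05. A match to GGGNNTTTCC within 30 bases of the start was thus found in Nfkbia, which rose, and in Tnfaip3, whose direction depended on the fit. Nfkb2, lower as counted (log2 fold change -0.14), also had such a match, at -11 to -2 from its first annotated start.

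Among the subunits, Nfkb1 encodes the precursor that is processed to p50, a DNA-binding partner without a transactivation domain. The gene (chromosome 3, 135290416 to 135397308) had 156 and 159 CPM in Mock and 132 and 132 CPM in uniSTING. The gap between the groups was many times the spread within them, at -0.26 on the log2 scale (SE 0.03, adjusted p = 1.55e-05). The call ended with the exon length trend removed, at -0.02 (adjusted p = 0.596), and with length and GC trends removed, at -0.07 (adjusted p = 0.0541).

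Nfkb2 encodes the precursor of p52, the DNA-binding subunit of the non-canonical pathway. The gene (chromosome 19, 46292759 to 46300824) had 266 and 269 CPM in Mock and 243 and 243 CPM in uniSTING, which is -0.14 on the log2 scale (SE 0.02, adjusted p = 3.56e-04). Both groups were tight and did not overlap, but with length and GC trends removed the value was 0.02 and did not pass (adjusted p = 0.524). Exons of Psd and of a transcript named AC114539.1, both on the opposite strand, cover 18.1% of its exon length, so its level without strand is uncertain. Psd had 242 to 373 counts and AC114539.1 had 57 to 107, against 4545 to 6055 counts of Nfkb2.

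Rela encodes p65, the main activating subunit of the canonical dimer. The gene (chromosome 19, 5687511 to 5698158) had 132 and 130 CPM in Mock and 121 and 126 CPM in uniSTING. The log2 fold change of -0.09 (SE 0.03, adjusted p = 0.0357) lost its call with DESeq2 (adjusted p = 0.213). Leaving out either Mock library or uniSTING replicate 1 ended it too (adjusted p from 0.0709 to 0.255), as did removal of length and GC trends (adjusted p = 0.827).

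Rel encodes c-Rel, an activating subunit best known from lymphocytes, and was the member with the largest fall as counted. The gene (chromosome 11, 23686847 to 23720970) had 18.4 and 19.3 CPM in Mock and 14.9 and 14.4 CPM in uniSTING, from 280 to 426 counts per library. The log2 fold change was -0.36 (SE 0.08, adjusted p = 0.00235), and the call was kept with DESeq2 (adjusted p = 0.0405) and without any 1 library (adjusted p from 0.00456 to 0.0274). With the coding transcript length trend removed, Rel was at -0.07 and did not pass (adjusted p = 0.468).

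Relb encodes the activating partner of p52 in the non-canonical pathway. The gene (chromosome 7, 19340142 to 19363363) had 33.8 and 29.8 CPM in Mock and 31.0 and 29.2 CPM in uniSTING, so that the groups overlapped. Its log2 fold change was -0.08 with a 95% interval from -0.25 to 0.09 (adjusted p = 0.435).

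To compare levels between genes, counts were divided by the exon length that the tables give for each gene and scaled to the same total in each library (TPM). In Mock the order ran from Nfkb2 (180 ± 1.00 TPM) and Rela (131 ± 1.57 TPM) through Nfkbia (103 ± 2.55 TPM), Tnfaip3 (63.0 ± 1.29 TPM) and Nfkbib (45.6 ± 3.54 TPM) to Nfkbiz (14.5 ± 1.16 TPM) and Rel (7.77 ± 0.241 TPM). Between these lay Nfkb1 at 40.2 ± 0.402, Nfkbie at 35.5 ± 0.816 and Relb at 25.2 ± 2.33 TPM. The values of neighbours in this order did not overlap in either group. In uniSTING, Nfkbia (132 ± 6.37 TPM) lay above Rela (113 ± 2.94 TPM), the reverse of their order in Mock, and Nfkbie (34.0 ± 0.00297 TPM) lay above Nfkb1 (30.9 ± 0.0146 TPM). Per-length levels of all tested genes shifted by a median of -0.12 on the log2 scale between Mock and uniSTING, so TPM values serve here for the order and not for the change.

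The exon length of a gene in the tables is the union over all its isoforms, which weighs on the order. For Nfkb1 it is 12.1 kb, whereas its longest protein-coding transcript in the reference is 4.12 kb long. Per kilobase of that transcript, Nfkb1 moved from place 6 to place 3 in Mock. Nfkb2 and Rela kept places 1 and 2 in Mock, and Rel stayed last in both groups. Nfkbia was below Rela in Mock (34.3 against 48.5 CPM per kb) and above it in uniSTING (47.3 against 45.1) by this measure too. Both measures keep the trend of fold change with length. The log2 fold change of Nfkbia exceeded that of Rela by 0.57 as counted, but by 0.34 to 0.45 with trends removed. Whether their order still reverses with trends removed was not tested.

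**Figure D2:**
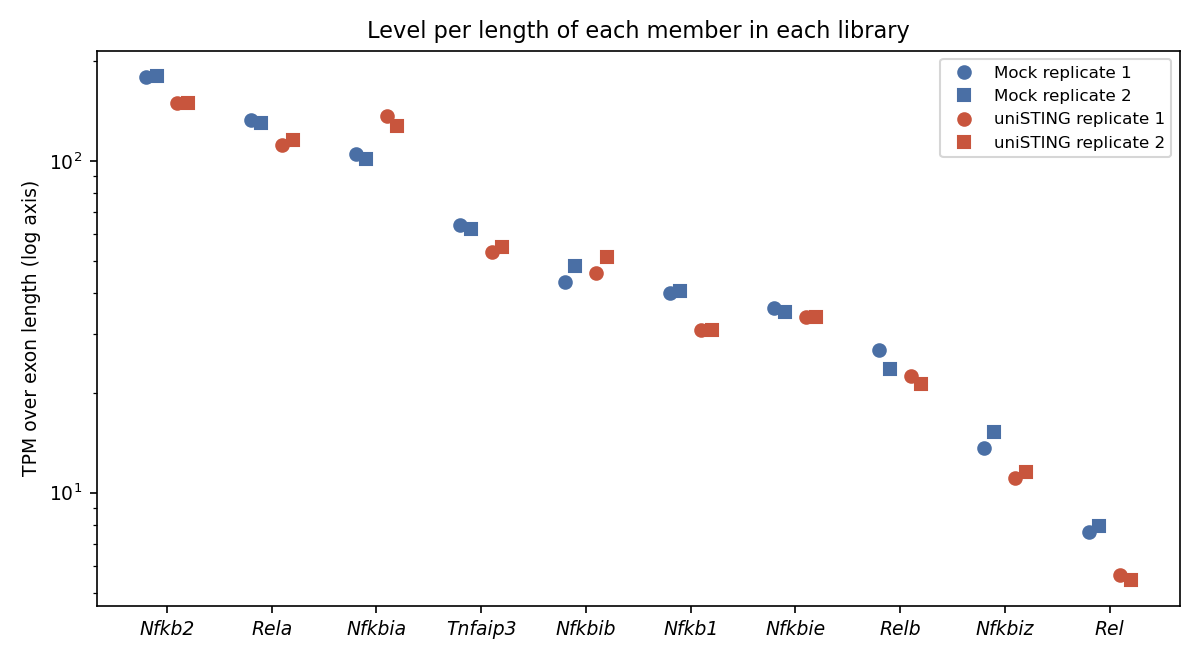
Level of each member per exon length (TPM, log axis) in the 4 libraries, in the order of the Mock means. Nfkb2 is highest and Rel lowest in every library, and Nfkbia lies below Rela in Mock but above it in uniSTING.

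Within the subunit pool, Nfkb2 and Rela made up most of the transcripts in every library. Of the summed TPM of the 5 subunit genes, Nfkb2 made up 46.7% ± 0.535 in Mock and 46.6% ± 0.215 in uniSTING, and Rela 34.2% ± 0.207 and 35.3% ± 0.674 (SD, n = 2 libraries per group). Nfkb1 made up 10.5% ± 0.166 and 9.61% ± 0.0698, Relb 6.56% ± 0.568 and 6.80% ± 0.331, and Rel 2.02% ± 0.0746 and 1.73% ± 0.0582. The shares of Nfkb1 and Rel were lower and that of Rela higher in uniSTING without overlap of the libraries, while those of Nfkb2 and Relb overlapped. The differences in share were not tested. These shares rest on the union exon lengths and would be larger for Nfkb1 by its coding transcript.

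The ratio of the transcripts of 3 IkB genes to those of the subunits was higher in uniSTING. It was formed without Nfkbiz and Tnfaip3. Nfkb1 and Nfkb2, which encode precursors, were counted only as subunits, so the ratio does not describe all inhibitor against all subunit proteins. The summed TPM of Nfkbia, Nfkbib and Nfkbie over that of the 5 subunits came to 0.477 and 0.481 in Mock and to 0.676 and 0.659 in uniSTING, a 1.39-fold higher ratio. Both uniSTING libraries lay above both Mock libraries. With 2 against 2 libraries the exact two-sided permutation test cannot go below p = 0.333, which is the value it gave. With Nfkbiz and Tnfaip3 included, an alternative added after seeing the data, the ratio was 0.678 and 0.684 in Mock and 0.876 and 0.865 in uniSTING, 1.28-fold higher. For the single pair Nfkbia over Rela the ratio was 0.790 and 0.776 in Mock and 1.22 and 1.10 in uniSTING. The inhibitors in this ratio have shorter exon lengths (1.61 to 3.05 kb) than the subunits (3.07 to 12.1 kb), and length itself went with fold change in these libraries.

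Across the 10 members, shorter genes had the higher fold changes. Their log2 fold changes and exon lengths had a Spearman rho of -0.94, and rho was -0.92 with the length of the longest protein-coding transcript. These are descriptions over 10 genes that share the same 4 libraries. Over 7970 tested genes above 16 CPM, rho with exon length was -0.49 across genes, which are not independent replicates. The 2 members that rose, Nfkbia at 1.61 kb and Nfkbib at 2.17 kb, are the shortest of the 10. At the other end, Rel at 7.47 kb and Nfkb1 at 12.1 kb had the lowest fold changes. Which step of the experiment goes with the length trend was not tested.

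**Figure D3:**
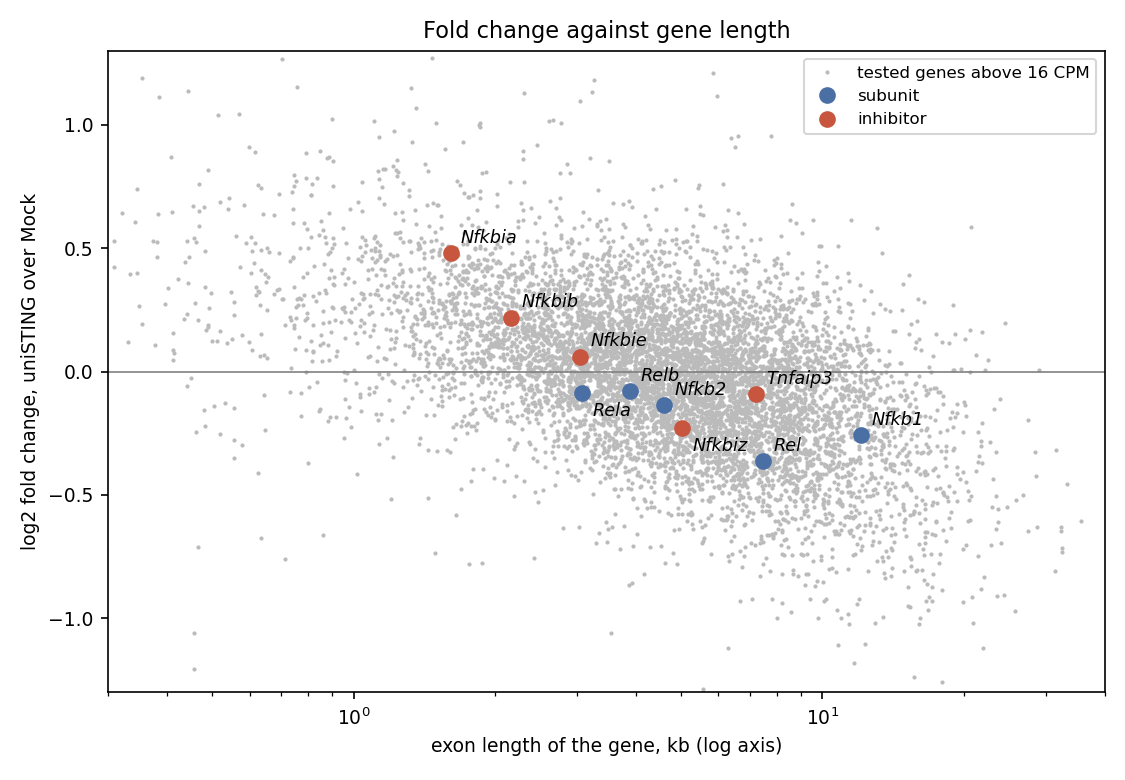
Log2 fold change (uniSTING over Mock) against exon length (kb, log axis), with tested genes above 16 CPM in grey, those beyond the axes not drawn, and the members in colour. The members run from Nfkbia, the shortest at 1.61 kb and 0.48, down to Rel at 7.47 kb and -0.36 and Nfkb1 at 12.1 kb and -0.26.

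Once the relation of counts to exon length was removed within each library, Nfkbia was still higher, at a log2 fold change of 0.29 (95% interval 0.18 to 0.40, adjusted p = 7.78e-04). In that fit Nfkbia was the only member that rose, beside 23.4% of all tested genes, and Nfkb2, Rel and Rela fell, beside 22.3% of all tested genes. Nfkbib was then at 0.09 and Nfkbiz at -0.19. Nfkbie, like Tnfaip3, changed sign, to -0.00353 (adjusted p = 0.970).

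The subunit results depended on how length was defined. With the length of the longest protein-coding transcript in place of the union of exons, Nfkb1 fell by 0.19 (adjusted p = 2.71e-04), while Rel no longer passed. With trends of exon length and GC content removed together, Rel was at -0.35 (adjusted p = 0.00380), and none of the other subunits passed. In these 2 fits Nfkbia was at 0.34 and 0.33 (adjusted p = 2.98e-04 and 2.45e-04), and Nfkbib passed only in the latter (adjusted p = 0.190 and 0.0464). No subunit kept its call in all 3 fits, whereas Nfkbia did. The difference between the log2 fold changes of Nfkbia and Rela was 0.57 as counted and 0.44, 0.45 and 0.34 in the 3 fits.

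**Figure D4:**
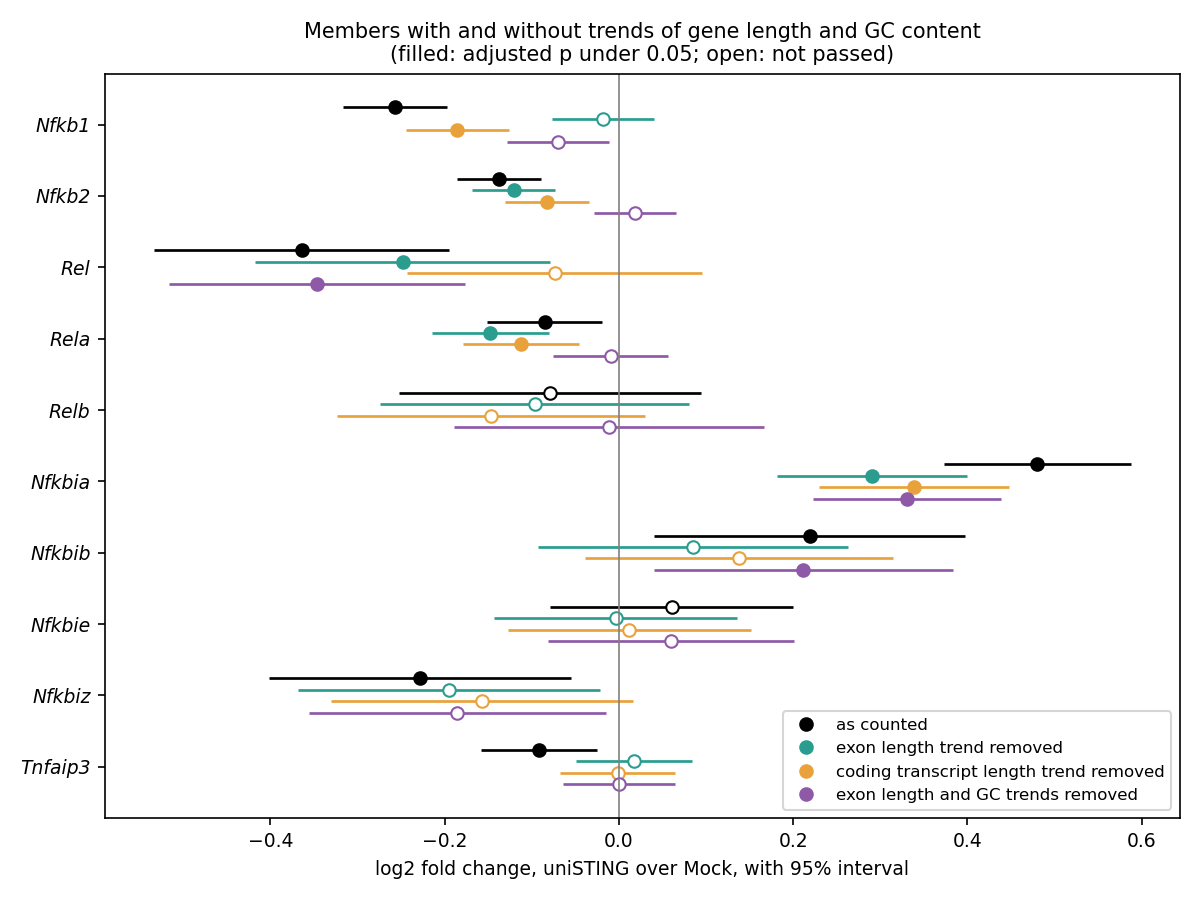
Log2 fold change of each member with its 95% interval as counted and in 3 fits with trends of length or of length and GC content removed, with filled points past an adjusted p of 0.05. Nfkbia stays between 0.29 and 0.48 with every point filled, while each subunit has at least 1 open point.

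The other genes of the pathway moved in both directions, as did tested genes at large. Of 53 genes listed as receptors, adaptors and ubiquitin ligases, kinases with their partners and further restraints, 52 were tested. Of these 14 rose, 12 fell and 26 did not pass, with a median log2 fold change of 0.04. With the exon length trend removed, 18 rose and 8 fell, with DESeq2 7 rose and 7 fell, and without Mock replicate 1 9 rose and 9 fell. Over all tested genes 24.9% rose and 25.4% fell as counted, and 23.4% and 22.3% with the exon length trend removed. As counted, the calls of the 52 genes were near these shares. The shares are also the background for the counts of every list below. The members and these lists were chosen with earlier results of these data known.

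Among 11 receptor genes 5 rose and 1 fell, or 3 and 2 with the trend of either length removed. Tnfrsf12a, the receptor for TWEAK, was at 388 and 382 CPM in Mock and 464 and 459 CPM in uniSTING, a log2 fold change of 0.26 (adjusted p = 1.06e-06) that was 0.01 and no longer passed by coding transcript length (adjusted p = 0.600). Tlr4, the receptor for bacterial lipopolysaccharide, rose by 0.50 on the log2 scale and Il1rap, the co-receptor for interleukin 1, by 0.40 (0.62 with the exon length trend removed).

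Of 15 adaptor and ubiquitin ligase genes 4 rose, 3 fell and 8 did not pass. With DESeq2 2 rose and 1 fell. With the exon length trend removed 3 rose and 1 fell, by coding transcript length 4 and 2, and by length and GC content 4 and 1. Traf3 encodes an adaptor that keeps the kinase NIK low and thereby restrains the non-canonical pathway. It went from 113 and 116 CPM in Mock to 87.3 and 88.4 CPM in uniSTING, a log2 fold change of -0.38, and still passed at -0.27 by exon length, -0.23 by length and GC content and -0.11 by coding transcript length (adjusted p = 0.0146 in the last). Traf1 and the TNF receptor adaptor gene Tradd rose by 0.29 and 0.34. With the exon length trend removed Traf1 was at 0.44, and Tradd, at 0.18, did not pass (adjusted p = 0.0515).

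Of 10 genes for kinases and their partner proteins 1 rose, 3 fell and 6 did not pass. As counted, the latter included all 3 subunit genes of the IkB kinase complex (Chuk, Ikbkb and Ikbkg, singled out after their values were seen). With the exon length trend removed not all 3 stayed without a call, and any such call was higher. The balance of this list turned with the trends removed, to 5 higher and 2 lower by exon length, 3 and 1 by coding transcript length and 3 and 2 by length and GC content. Map3k14, which encodes NIK, the kinase that starts the non-canonical pathway, had 39.8 and 37.1 CPM in Mock and 27.5 and 28.0 CPM in uniSTING. Its log2 fold change of -0.47 passed in all 3 fits with trends removed, at -0.39 by coding transcript length, -0.38 by exon length and -0.25 by length and GC content (adjusted p = 0.0118 in the last). Tab3 and Tab2, adaptors of the kinase TAK1, fell by 0.31 and 0.10. Tab2 did not pass in any of the 3 fits with trends removed (adjusted p from 0.342 to 0.714), nor did Tab3 by coding transcript length (adjusted p = 0.220).

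Of 16 tested genes of further restraints 4 rose, 5 fell and 7 did not pass. With the exon length trend removed 7 rose and 3 fell, by coding transcript length 8 and 3, and by length and GC content 7 and 3. Otulin, which removes linear ubiquitin chains, had 36.6 and 34.7 CPM in Mock and 25.6 and 25.7 CPM in uniSTING, a log2 fold change of -0.48. The RNA-degrading regulator gene Zc3h12a fell by 0.67 on the log2 scale, from 10.5 and 10.4 CPM to 6.46 and 6.67 CPM, and Rnf11, a partner of A20, rose by 0.29. All 3 calls were kept in every other fit. Tnip3, the list's gene too low to be tested, had 2 to 6 counts per library.

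**Figure D5:**
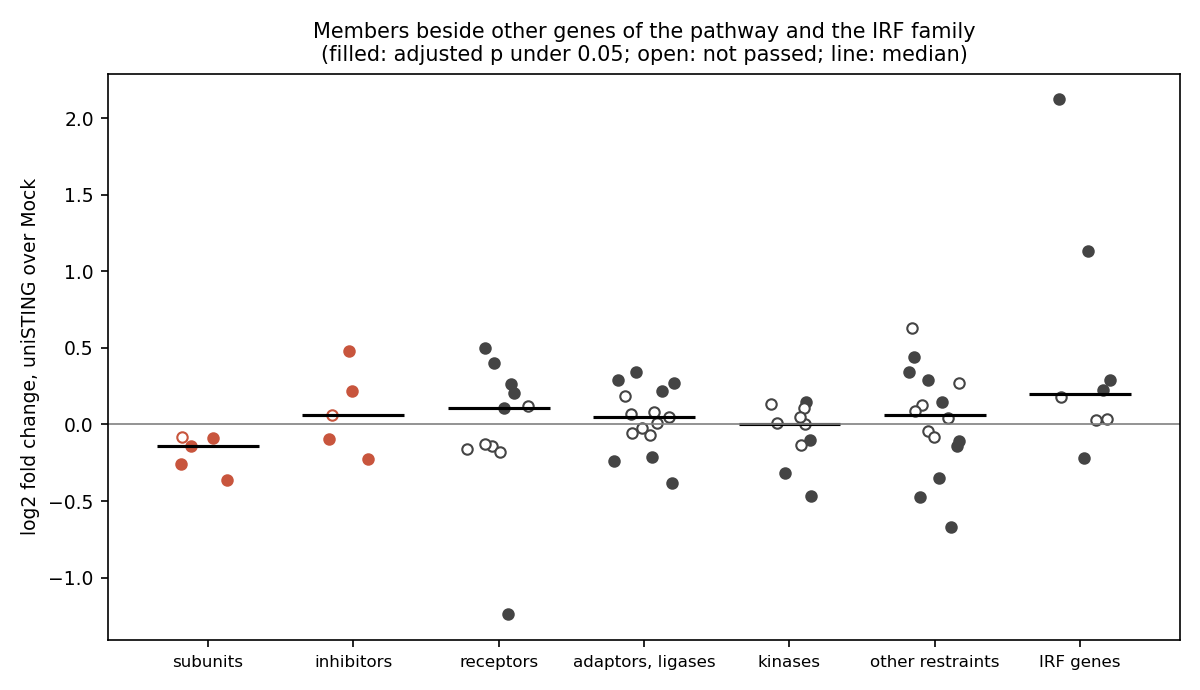
Log2 fold changes (uniSTING over Mock) of the members, of 4 lists of other pathway genes and of the interferon regulatory factor (IRF) genes, with filled points past an adjusted p of 0.05 and a line at each median. The members lie between -0.36 and 0.48, while Irf9 and Irf7 lie at 1.13 and 2.12.

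Well-known target genes of NF-kB ranged more widely than the members, though that difference was not tested. Of 24 listed, 4 (Cxcl2, Tnf, Il6 and Il1b) had too few reads to be tested. Of the 20 tested 9 rose, 4 fell and 7 did not pass. Their median log2 fold change was 0.46 (0.30 with the exon length trend removed). Csf2, among those that rose, had at most 3 reads in a Mock library, below the filter's minimum count of 10. It was kept through its uniSTING libraries, with 10 and 18 reads, so the filter itself favoured a rise. The tally and median without Csf2 were not computed. Without uniSTING replicate 1 the median over the targets tested was 0.20, and without Mock replicate 1 it was 0.61. The filter then kept 21 and 23 targets, so these medians are over other sets of genes. The stress response gene Ier3 rose from 85.2 and 86.3 CPM to 167 and 164 CPM, while Mmp9 fell from 211 and 207 CPM to 99.3 and 101 CPM. The growth factor gene Csf1 fell by 0.62 on the log2 scale.

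The IRF genes, which encode the other family of factors activated downstream of STING, are set beside the members for scale. Of 8 tested IRF genes 4 rose, 1 fell and 3 did not pass. With DESeq2 3 rose and 0 fell, and with limma-voom 3 rose and 1 fell. The median log2 fold change was 0.20 (0.22 with the exon length trend removed). Irf7 had 1.59 and 2.40 CPM in Mock and 9.71 and 7.99 CPM in uniSTING, and Irf9 8.57 and 10.0 against 20.4 and 20.6 CPM. Their log2 fold changes of 2.12 and 1.13 were 2.10 and 1.18 with the exon length trend removed. No test of the difference between the families was made.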

How the data were processed

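RNA of 4 libraries (2 Mock, 2 uniSTING) was analysed from the deposited raw counts per gene. Per the file headers, uniquely mapped read pairs over exons were assigned to genes of GRCm39 (Ensembl 103) by featureCounts 2.0.1 with no strand setting. HISAT2 is named per the submitters' processing notes, its version not given in the sources used here. Symbols were matched for 52093 of 53647 identifiers.

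Counts were tested across all 12972 genes with edgeR 4.0.16 in R 4.3.3 (TMM, filterByExpr with a minimum count of 10 and total of 15, glmQLFit, glmQLFTest on the group) with Benjamini-Hochberg adjustment at 0.05. Standard errors were derived from the F statistic and are approximate. CPM are counts over the TMM-scaled library size. Trends were removed by lowess (span 0.3) against length or GC content and entered as offsets. GC content and coding transcript lengths came from GENCODE M21 by identifier, and GC content covered 99.9% of tested genes. For genes without a protein-coding transcript, the trend fit used the longest transcript of any type. The script was tested on simulated data.

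Alternatives were DESeq2 1.42.0 and its size factors in edgeR, limma-voom (limma 3.58.1), 2 other filters, the replicate block, each library left out, the exon length trend and a 1.5-fold threshold. The coding transcript length and GC fits and a ratio over all 5 inhibitor genes were added after seeing the data. Members, gene lists and the rule for named genes (all members, and per other list at most 3 genes, by smallest p) were chosen with earlier results of these data known.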

Additional observations from a re-analysis of the deposited data

How the results depend on the processing

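As reported, 2 members were higher and 6 lower in uniSTING. These counts became 1 and 3 with DESeq2, 1 and 3 with the exon length trend removed, and 1 and 3 with the coding transcript length trend removed. With length and GC trends removed 2 members were higher and 1 was lower. Leaving out each library in turn gave 1 to 2 members higher and 3 to 6 lower. At a threshold of 1.5-fold, 0 members were higher and 0 lower in edgeR's test, at an adjusted or unadjusted p, as the largest change was 1.40-fold. Over all genes 673 were then higher and 586 lower. With the replicate block, 2 members were higher and 6 lower, and 3374 genes were higher and 3403 lower in all, so it changed no call of a member. Deviations of same-numbered libraries correlated at 0.53 across genes, but the labels do not say what a number shares.

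Directions that reversed belonged to values near 0. Nfkb2 was at 0.0181 and Tnfaip3 at 1.86e-05 with length and GC trends removed. With the exon length trend removed, Nfkbie was at -0.00353 and Tnfaip3 at 0.0175. Relb ran from -0.17 to 0.00371 when each library was left out, the latter without Mock replicate 1. The cause was not tested. The call of Nfkbia was kept in all 13 alternatives, those of Rel and Nfkb2 in 12 each and that of Nfkb1 in 11. The ratio of inhibitors to subunits was higher in uniSTING in its 7 alternatives (summed counts, Nfkbia over Rela, all 5 inhibitor genes, each library left out), and was not recomputed with the length trend removed.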
